A study of Mus musculus with 11 samples.

Results

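The peaks described here are all regions of accessible chromatin in naive mouse CD4 T cells whose nearest gene, as the table assigns it, was Pdcd1, Lag3, Tigit, Havcr2, Cd200, Btla, Cd160 or Cd96. These 8 genes encode inhibitory receptors of T cells or partners of them, and lie outside the Ctla4 locus. They held 41 of the 45508 peaks: 6 at Pdcd1, 5 at Lag3, 5 at Tigit, 2 at Havcr2, 6 at Cd200, 8 at Btla, 2 at Cd160 and 7 at Cd96, so each gene had at least 1 peak. Each library is an ATAC-seq profile of 10000 sorted cells: the transposase Tn5 cuts open DNA and tags the fragments for sequencing. The mice were untreated, and all 4 groups carried the same alleles on a C57/BL6 background: the transgene Tg(Nr4a1-EGFP)GY139Gsat, in which regulatory DNA of Nr4a1 drives GFP (the Nur77-GFP reporter of T cell receptor signalling), and the Foxp3tm1Flv targeted mutation, which marks regulatory T cells with RFP. From spleen and lymph nodes, CD4+ Foxp3-RFP negative CD44lo cells were sorted by reporter level and Ly6C, a surface protein that is lower on naive cells with stronger basal signals. Population A was Nur77-GFPlo Ly6C+ (2 libraries, mice 1 and 3), and population B was Nur77-GFP intermediate Ly6C+ (3 libraries). Population C was Nur77-GFP intermediate Ly6C- (3 libraries), and population D was Nur77-GFP hi Ly6C- (3 libraries, mice 1 to 3). The study asked whether the strength of basal T cell receptor signalling goes with differences in chromatin accessibility.

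Inhibitory receptors lower the response of a T cell when they bind their ligands, in most cases through tyrosine motifs in the cytoplasmic tail that recruit phosphatases or adaptors. PD-1 (Pdcd1) and LAG-3 (Lag3) are induced by T cell receptor signalling and mark activated, anergic and exhausted cells. TIM-3 (Havcr2) is another receptor of exhausted cells, TIGIT and CD96 bind the nectin-like protein PVR, and BTLA and CD160 bind HVEM (Tnfrsf14). CD200 is itself a ligand, which dampens cells that carry CD200R1. The name inhibitory receptor therefore fits Cd200 only as a partner of one.

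Promoter sequence is shown for 3 of the genes: Pdcd1 and Cd200, whose promoter peaks rose from A to D, and Cd96, whose promoter peak gave nearly the same value in A and D. Each is the 240 bases that end 11 bases before the RefSeq start site (GRCm38.p6, minus strand, 5′ to 3′), at chr1:94052564-94052803, chr16:45409064-45409303 and chr16:46120259-46120498. Capitals mark matches to the motifs searched.
Pdcd1: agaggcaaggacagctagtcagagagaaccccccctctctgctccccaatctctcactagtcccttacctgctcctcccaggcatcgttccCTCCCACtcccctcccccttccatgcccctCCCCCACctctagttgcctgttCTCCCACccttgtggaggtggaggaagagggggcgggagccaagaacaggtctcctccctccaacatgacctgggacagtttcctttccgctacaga
Cd200: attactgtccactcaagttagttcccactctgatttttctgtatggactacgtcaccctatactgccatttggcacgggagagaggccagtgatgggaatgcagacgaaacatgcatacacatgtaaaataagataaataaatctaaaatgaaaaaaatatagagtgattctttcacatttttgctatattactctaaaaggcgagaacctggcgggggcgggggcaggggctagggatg
Cd96: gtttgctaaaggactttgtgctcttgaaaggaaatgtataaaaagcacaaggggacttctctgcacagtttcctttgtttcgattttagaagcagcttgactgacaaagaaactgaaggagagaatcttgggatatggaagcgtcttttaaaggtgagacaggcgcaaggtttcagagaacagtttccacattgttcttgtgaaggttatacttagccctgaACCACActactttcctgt
All 240 bases of the Pdcd1 and Cd96 windows and 231 of the Cd200 window lay within the promoter peak of the gene. The Pdcd1 window held 3 matches to the Egr-type motif GTGGGNG, the first base of each lying 159, 129 and 107 bases before the start. The Cd96 window held 1 match to the Runx motif TGTGGT, 28 bases before the start. The Cd200 window held no match to any of 9 motifs searched on both strands, which were these 2 and TGANTCA (AP-1), GGAAAA (NFAT), CTTTGA (Tcf/Lef), AAGGTCA (Nr4a), CCGGAA (Ets), an Irf motif and an NF-kB motif. Over 32851 RefSeq promoter windows of this length, 27.0% held the Egr-type motif and 13.6% the Runx motif, so a match to either is common. The Egr-type motif also had a match in the windows of Btla, Havcr2 and Cd160, and the Runx motif in those of Tigit, Btla, Havcr2 and Cd160. Lag3 was not matched.

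Across the 8 genes, 11 of 41 peaks were more accessible in D than in A and none was called less accessible. The 11 peaks lay at 5 genes: 4 at Cd200, 3 at Pdcd1, 2 at Lag3, 1 at Havcr2 and 1 at Btla. Of the Pdcd1 peaks, the one 25.9 kb upstream is listed through its D libraries alone, so its call is in part fixed by the listing. Tigit, Cd160 and Cd96 had no called peak among their 14. Each call is an adjusted p below 0.05 from limma on log2(rppm + 1), with all 11 libraries in 1 model and Benjamini-Hochberg adjustment over all peaks. The unit rppm is the depositors' depth-scaled read count, and every log2 change below is a difference on the log2(rppm + 1) scale, which understates changes of low peaks. Among all peaks 8.70% were called higher and 3.74% lower in this comparison, against 26.8% higher among the members. The median log2 change was 0.22 over the 41 peaks and -0.04 over all peaks. No member peak was called lower in D by limma, edgeR or DESeq2 at the adjusted threshold, while limma gave 1, edgeR 4 and DESeq2 1 at an unadjusted p below 0.05. The share of all peaks at that unadjusted cut is not given here, so these counts have no background beside them. With mouse as a block in the limma model, 14 members were higher and 1 lower, beside 12.5% and 8.79% of all peaks. Without mouse 3, which had the deepest libraries and leaves A with a single library, 4 of the 11 calls remained: Pdcd1 25.9 kb upstream, Havcr2 12.0 kb, Cd200 62.2 kb and Btla 27.8 kb downstream. The log2 changes of the 7 lost peaks were of like size with and without mouse 3: 1.44 and 1.46 at the Lag3 promoter, 1.21 and 1.34 at Lag3 3.73 kb, 1.21 and 1.22 at Cd200 47.6 kb, 1.09 and 0.98 at Cd200 26.7 kb, 1.49 and 1.26 at Pdcd1 1.15 kb, 0.65 and 0.73 at Pdcd1 exon 1, and 0.54 and 0.58 at Cd200 380 bp.

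**Figure D1:**
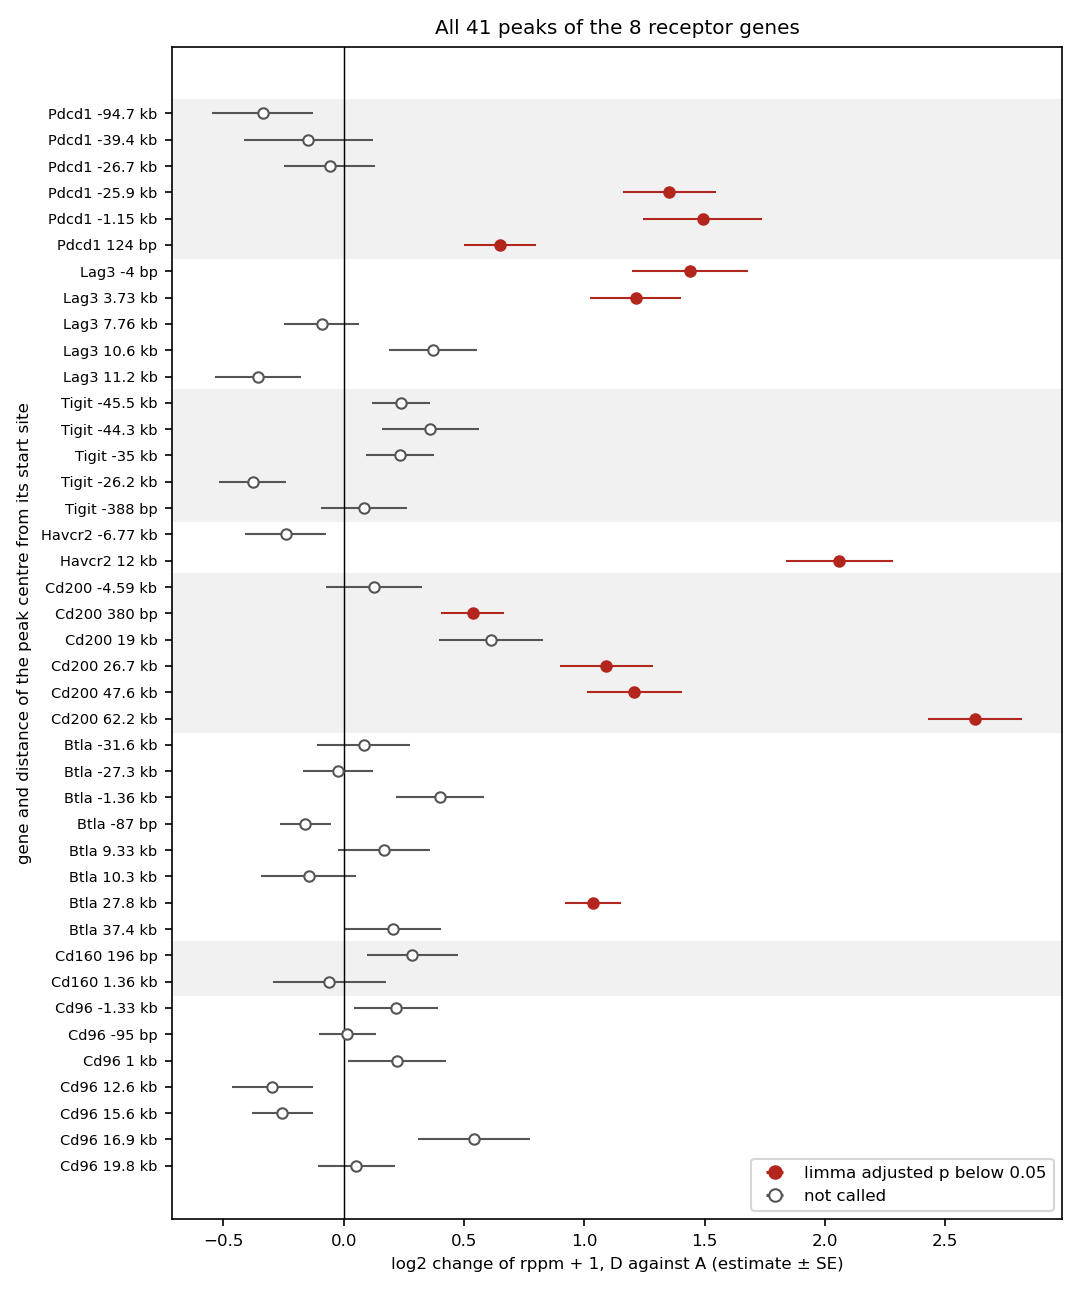
Change from population A to population D on the log2(rppm + 1) scale (horizontal axis) for each of the 41 peaks, named by gene and distance from its start, with bars of 1 standard error. Filled points are the 11 peaks called by limma, all between 0.54 and 2.62, and every Tigit, Cd160 and Cd96 point is open.

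The libraries held between 2597176 reads (D, mouse 1) and 36859229 reads (D, mouse 3), as recovered from the steps of the rppm values. At a value of 10 rppm this gives 26 reads for D of mouse 1 but 369 for D of mouse 3. In A both libraries were close in depth, at 9194084 and 9933354 reads. A bulk value can be higher because more cells are open at a site or because more copies per cell are open, and these cannot be told apart. Peaks were tied to genes by nearest start site, so a gene named here need not be the one a peak acts on, and peaks of 1 gene are not independent of each other.

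Pdcd1 encodes PD-1, and 3 of its 6 peaks were higher in D. The peak over exon 1 of 5 (chr1:94052006-94052853), which holds the promoter printed above, stood at 8.92 and 9.66 rppm in A and at 11.0, 10.3 and 9.82 in B. It stood at 12.0, 10.7 and 12.7 in C and at 18.1, 13.2 and 14.4 in D. Every D library was above every library of the other populations, and the rise was shallow, with a log2 change from A to D of 0.65 (SE 0.15, limma adjusted p = 0.0107). That call was lost without either A library, on thinned reads, in a fit to the A and D libraries alone and without mouse 3, with log2 changes between 0.56 and 0.73 in those fits. The intergenic peak 1.15 kb upstream (chr1:94053413-94053991) held 4.02 and 2.42 rppm in A, 3.79, 3.78 and 3.47 in B and 6.08, 5.66 and 4.23 in C. In D it reached 15.4, 7.85 and 9.88 rppm, with mouse 1 the highest. Its change was larger than that of the exon 1 peak next to it, at 1.49 (SE 0.25, limma adjusted p = 0.00105), and all D libraries again lay above all others.

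The remaining called Pdcd1 peak, 25.9 kb upstream (chr1:94078267-94078690), was nearly closed in the Ly6C+ populations, at 0.653 and 0.906 rppm in A and 0.557, 0.801 and 1.24 in B. It stood at 1.37, 1.95 and 1.19 rppm in C and at 3.47, 3.64 and 3.50 in D. The 3 D libraries agreed closely and did not overlap the rest, and the log2 change from A was 1.35 (SE 0.19, limma adjusted p = 0.000308), although the peak rested on only 5 to 129 reads per library. No peak of the table has a third-highest library value under 1.955 rppm, and outside D this peak stays below that, so it is listed through its D libraries alone and its call is in part fixed by that. It is the only member of which this holds. Its neighbour, a gap of 201 bp away and 26.7 kb upstream of the start, was open in every population and flat: 19.0 ± 3.11 rppm in A (SD, n = 2) and 18.5 ± 4.83 in D (SD, n = 3). The log2 change there was -0.06 (95% interval -0.47 to 0.35), which does not reach the estimate for the called peak. The other 2 Pdcd1 peaks, 39.4 and 94.7 kb upstream, had log2 changes of -0.15 and -0.34 and were not called. At the 39.4 kb peak the mouse 1 library was the highest in each population, with 43.9 rppm in D against 21.7 and 25.6 in mice 2 and 3.

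Lag3 encodes the MHC class II receptor LAG-3, a relative of CD4 whose gene lies close to Cd4. Its promoter peak (4 bp from the start, chr6:124911314-124912104) held 2.61 and 3.12 rppm in A, 1.56, 3.55 and 3.15 in B, and 3.53, 3.19 and 5.11 in C. In D it held 8.86, 9.02 and 10.6 rppm. The B libraries overlapped both A and C, while both A libraries lay below all C libraries. D stood clear of them all, with a log2 change from A of 1.44 (SE 0.24, limma adjusted p = 0.00114) and from C of 1.10 (limma adjusted p = 0.00734). The next coding gene, Ptms, lies 1.57 kb from this peak.

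The second called Lag3 peak was in intron 5 of 7 (chr6:124907868-124908074), 3.73 kb downstream of the start. It stood at 1.74 and 2.11 rppm in A, 1.34, 2.06 and 2.00 in B, 1.77, 2.78 and 2.13 in C, and 5.78, 6.11 and 5.45 in D. Here A, B and C overlapped while all D libraries were higher, with a log2 change of 1.21 from A (SE 0.19, limma adjusted p = 0.000589) and 1.08 from C (limma adjusted p = 0.00141). Of the total change from A to D, 89.3% fell between C and D at the intron 5 peak and 76.5% at the promoter. The other 3 Lag3 peaks lay at or past the end of the gene, 7.76, 10.6 and 11.2 kb downstream. The strongest of them, at the transcript end, measured 21.6 to 28.3 rppm in D and 25.8 and 26.8 in A. At the 10.6 kb peak D was above all other libraries, at 9.63, 8.87 and 9.01 rppm against 4.68 to 7.45, and its log2 change of 0.37 was not called (limma adjusted p = 0.246).

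Havcr2 encodes TIM-3. Its peak in intron 4 of 6 (chr11:46466618-46467343), 12.0 kb downstream of the start, held 2.18 and 1.21 rppm in A, 3.12, 3.21 and 3.03 in B and 1.96, 3.81 and 3.60 in C. In D it held 9.24, 10.0 and 10.9 rppm. The B and C libraries overlapped and D was 5.95-fold above A in mean rppm, and the log2 change was 2.06 from A (SE 0.22, limma adjusted p = 3.04e-05) and 1.45 from C (limma adjusted p = 0.000533). By log2 change from A to D it ranked 342 of all 45508 peaks. The other Havcr2 peak, 6.77 kb upstream, had point estimates in the opposite direction, from 23.4 and 20.6 rppm in A to 14.6, 19.6 and 21.8 in D, and was not called (log2 change -0.24, limma adjusted p = 0.454). The table lists no Havcr2 peak within 1 kb of its start.

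Cd200 had the most called peaks, 4 of 6, and they ran from the first intron to far past the end of the gene. The peak 62.2 kb downstream of the start (chr16:45346303-45347417), intergenic in the table and overlapping the long noncoding RNA gene Gm30636 in RefSeq, held 2.39 and 1.51 rppm in A and 2.56, 2.98 and 2.75 in B. It held 5.69, 4.94 and 4.54 rppm in C and 13.5, 19.3 and 18.7 in D. The 4 populations formed separate ranges in the order A, B, C, D, and D was 8.79-fold above A in mean rppm. Its log2 change from A to D, 2.62 (SE 0.20, limma adjusted p = 1.91e-06), ranked 88 of 45508. The change from C to D was 1.57 (limma adjusted p = 0.000109), and that from B to C was 0.68, which did not pass (limma adjusted p = 0.391).

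The Cd200 peak 47.6 kb downstream (chr16:45361066-45361861) held 2.72 and 2.82 rppm in A, 3.90, 3.21 and 2.51 in B, 5.10, 5.45 and 4.68 in C, and 9.63, 6.11 and 7.73 in D. Each Ly6C- library was above each Ly6C+ library, and D above C. The log2 change from A to D was 1.21 (SE 0.20, limma adjusted p = 0.000924). The peak over the 3′ UTR in exon 6 (chr16:45381785-45382855), 26.7 kb downstream, held 6.64 and 5.44 rppm in A, 9.24, 6.52 and 8.62 in B, 10.4, 6.79 and 9.82 in C, and 15.0, 13.1 and 13.8 in D. Mouse 2 was the lowest of the 3 mice in B, C and D there, and D lay above the rest with a log2 change from A of 1.09 (SE 0.19, limma adjusted p = 0.00157). From C to D the change was 0.60, with limma adjusted p = 0.0592 and, with the mouse block, 0.00448.

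The Cd200 promoter printed above belongs to a broad peak centred 380 bp into the gene (chr16:45408053-45409294). This was already open in A, at 17.8 and 18.8 rppm, and held 23.7, 17.9 and 19.6 in B, 22.6, 21.2 and 23.7 in C, and 25.4, 29.1 and 26.7 in D. D was above all other libraries by a small margin, and the log2 change from A was 0.54 (SE 0.13, limma adjusted p = 0.0141). The call was lost without either A library and without mouse 3, with changes of 0.50 to 0.58. Among the called Cd200 peaks alone, the estimated change was larger with distance from the start: 0.54, 1.09, 1.21 and 2.62 at 380 bp, 26.7 kb, 47.6 kb and 62.2 kb. Their mean in A fell in the same order, at 18.3, 6.04, 2.77 and 1.95 rppm, so distance and starting level cannot be told apart. The remaining 2 peaks, 19.0 kb downstream and 4.59 kb upstream, had changes of 0.61 (limma adjusted p = 0.09, and 0.00453 with the mouse block) and 0.13.

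Btla encodes the HVEM receptor BTLA, and 1 of its 8 peaks was called. That peak lies over the 3′ UTR in exon 6 of 6 (chr16:45251560-45252703), 27.8 kb downstream of the start, and was the strongest of the 11 called peaks in A. It held 24.7 and 22.0 rppm in A, 27.4, 24.5 and 25.8 in B, 24.9, 28.5 and 27.4 in C, and 53.5, 49.0 and 44.5 in D. The B libraries overlapped both A and C, while both A libraries lay just below all C libraries, and D stood well above all of them, with a log2 change of 1.04 from A (SE 0.12, limma adjusted p = 4.32e-05) and 0.84 from C (limma adjusted p = 0.000259). The Btla promoter, the most open of the 41 peaks, held 69.9 ± 4.11 rppm in A (SD, n = 2) and 62.4 ± 3.59 in D (SD, n = 3), a log2 change of -0.16 (95% interval -0.39 to 0.07, limma adjusted p = 0.423). The 6 further Btla peaks had changes between -0.15 and 0.40 and none was called. Btla and Cd200 are on the same chromosome, and the Btla 3′ UTR peak and the Cd200 62.2 kb peak lie 93.6 kb apart.

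**Figure D2:**
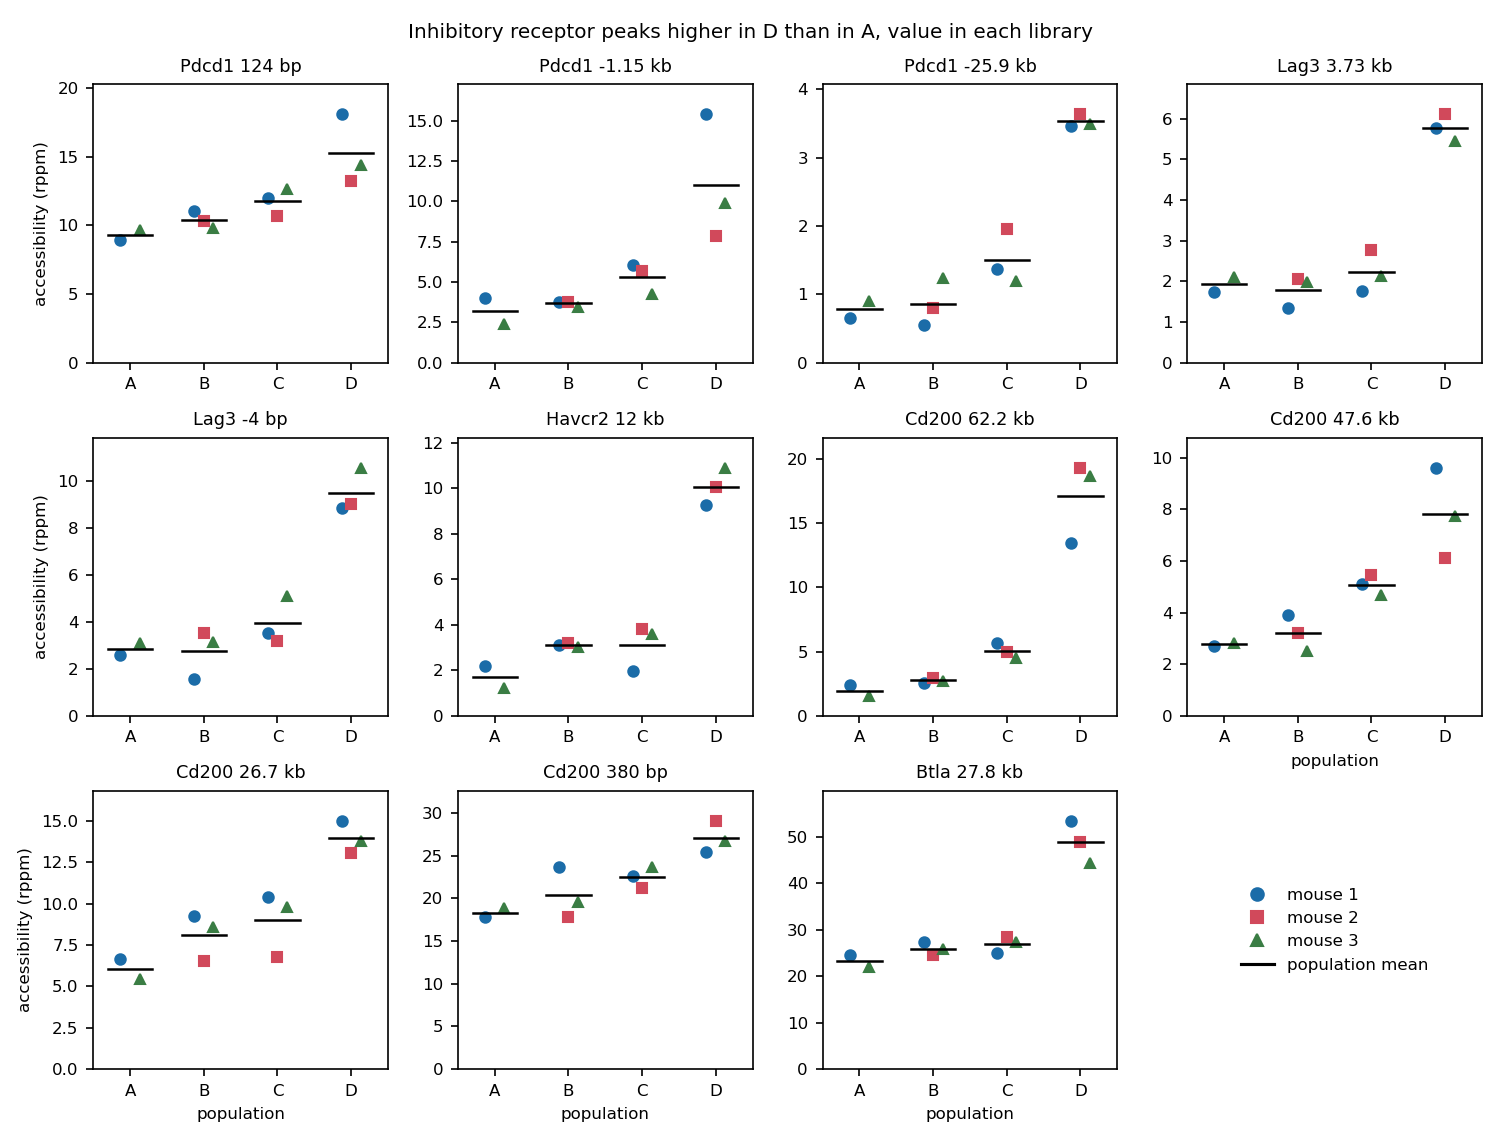
Accessibility in rppm on a linear axis from 0 in each library of populations A to D, for the 11 peaks higher in D than in A, with mice 1 to 3 as separate symbols and a bar at the mean. In every panel the 3 D points lie above all A, B and C points, and in the Pdcd1 -1.15 kb, Cd200 62.2 kb and Cd200 47.6 kb panels all C points also lie above all B points.

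Tigit, the receptor for PVR, was open but nearly level. Its promoter peak (chr16:43663870-43665275) held 41.7 and 34.7 rppm in A, 40.2, 41.9 and 38.3 in B, 47.5, 36.2 and 35.2 in C, and 52.8, 32.6 and 38.3 in D. The populations overlapped fully and mouse 1 was the highest in A, C and D, so the log2 change of 0.08 had a 95% interval of -0.30 to 0.47 (limma adjusted p = 0.843). A Tigit peak 26.2 kb upstream (chr16:43689994-43690851) had its lowest values in D. It held 19.0 and 18.5 rppm in A, 21.5, 20.3 and 18.4 in B, 19.2, 20.7 and 17.2 in C, and 13.5, 16.7 and 12.8 in D. All D libraries lay below all others, as they did at 5.67% of all peaks, and the change of -0.38 was not called by the model without a block (limma adjusted p = 0.106). With the mouse block it was called, at limma adjusted p = 0.0111. The block also called 2 Tigit peaks higher, at 35.0 kb (log2 0.23, limma adjusted p = 0.374 without and 0.0177 with the block) and 45.5 kb upstream (0.24, 0.269 and 0.0295). The 26.2 kb peak was also called lower without the block when D replicate 2 was left out. The calls at this gene thus depended on the model and on the libraries used.

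Cd160 encodes a second receptor for HVEM, best known from cytotoxic and natural killer cells. Its peak at the start (196 bp, chr3:96813815-96814835) held 7.94 and 7.75 rppm in A and 8.47, 9.89 and 11.2 in D, and the second Cd160 peak, 25 bp away, held 11.9 and 14.1 in A and 8.09, 14.5 and 15.9 in D. Neither was called, with log2 changes of 0.29 (95% interval -0.12 to 0.69) and -0.06 (-0.57 to 0.45). Cd96 encodes a second receptor for PVR and had 7 peaks, none called in any comparison. The Cd96 promoter peak (chr16:46119756-46120930) held 28.0 and 27.0 rppm in A, 30.2, 26.1 and 27.3 in B, 29.2, 29.1 and 25.1 in C, and 30.0, 25.9 and 27.5 in D. Its populations overlapped throughout, and the interval of its log2 change of 0.02 was -0.24 to 0.27, which leaves out the changes estimated at the Pdcd1 and Cd200 promoters. In an intron 12.6 kb into Cd96 the D libraries were the lowest, at 4.62, 5.82 and 6.05 rppm against 6.14 to 8.35 elsewhere, and the change of -0.30 was not called (limma adjusted p = 0.333). All D libraries lay below all others at 2 of the 41 members, this peak and Tigit 26.2 kb upstream, and at 5.67% of all peaks.

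The order of the populations was compared next, since each neighbouring pair isolates 1 step of the sort. From A to B, reporter low to intermediate in Ly6C+ cells, limma called none of the 41 peaks, as it called 0% of all peaks. Unadjusted, 1 member passed 0.05, and edgeR and DESeq2 called none. From B to C, Ly6C+ to Ly6C- at intermediate reporter, limma again called no member, beside 0.00220% of all peaks called higher at the adjusted threshold. Unadjusted, 4 members passed 0.05, and edgeR and DESeq2 called none. The share of all peaks at the unadjusted cut is not given for either step. From C to D, reporter intermediate to high in Ly6C- cells, 7 members were higher and none lower, beside 4.51% and 1.49% of all peaks. edgeR and DESeq2 each called 8 members higher, beside 2684 and 2020 of all 45508 peaks. The 7 were the Pdcd1 peaks 1.15 and 25.9 kb upstream, both Lag3 peaks, Havcr2 12.0 kb, Cd200 62.2 kb and Btla 27.8 kb. For the 2 Pdcd1 peaks the C to D changes were 0.89 (limma adjusted p = 0.0301) and 0.87 (limma adjusted p = 0.00811). The second of these peaks is the one listed through its D libraries alone.

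Between C and D lay 43.1% to 89.3% of the whole A to D change at the 11 called peaks, the least at Cd200 47.6 kb and the most at Lag3 intron 5. At Cd200 47.6 kb the steps from B to C and from C to D were of like size, 0.54 and 0.52, and Havcr2 12.0 kb had a first step of 0.64 from A to B and then -0.03 from B to C. The C to D step minus the A to B step was then tested itself. It was 1.16 at Lag3 intron 5 (limma adjusted p = 0.0624), 1.21 at Cd200 62.2 kb (limma adjusted p = 0.0611) and 0.69 at Btla 27.8 kb (limma adjusted p = 0.0742), and no member passed, beside 0.631% of all peaks. At an unadjusted p below 0.05, 7 members had a positive and 1 a negative step difference, with no share of all peaks given for that cut. At the adjusted threshold edgeR and DESeq2 called none. With the mouse block 4 passed, namely those 3 peaks (limma adjusted p = 0.0139, 0.0202 and 0.0153) and the Lag3 promoter (0.0351), beside 2.16% of all peaks. In the test for any difference among the 4 populations 10 members passed, beside 9.64% of all peaks. With the mouse block 13 passed, the added ones being Cd200 380 bp (limma adjusted p = 0.0543 without and 0.012 with the block), Cd200 19.0 kb (0.293 and 0.0188) and Tigit 26.2 kb upstream (0.0912 and 0.00798). The share of all peaks passing that test with the block is not given here. The block also raised the A to D calls over all peaks, from 5658 to 9668. Every D library was above every other library at 12 members, the 11 called ones and Lag3 10.6 kb, and at 8.47% of all peaks.

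**Figure D3:**
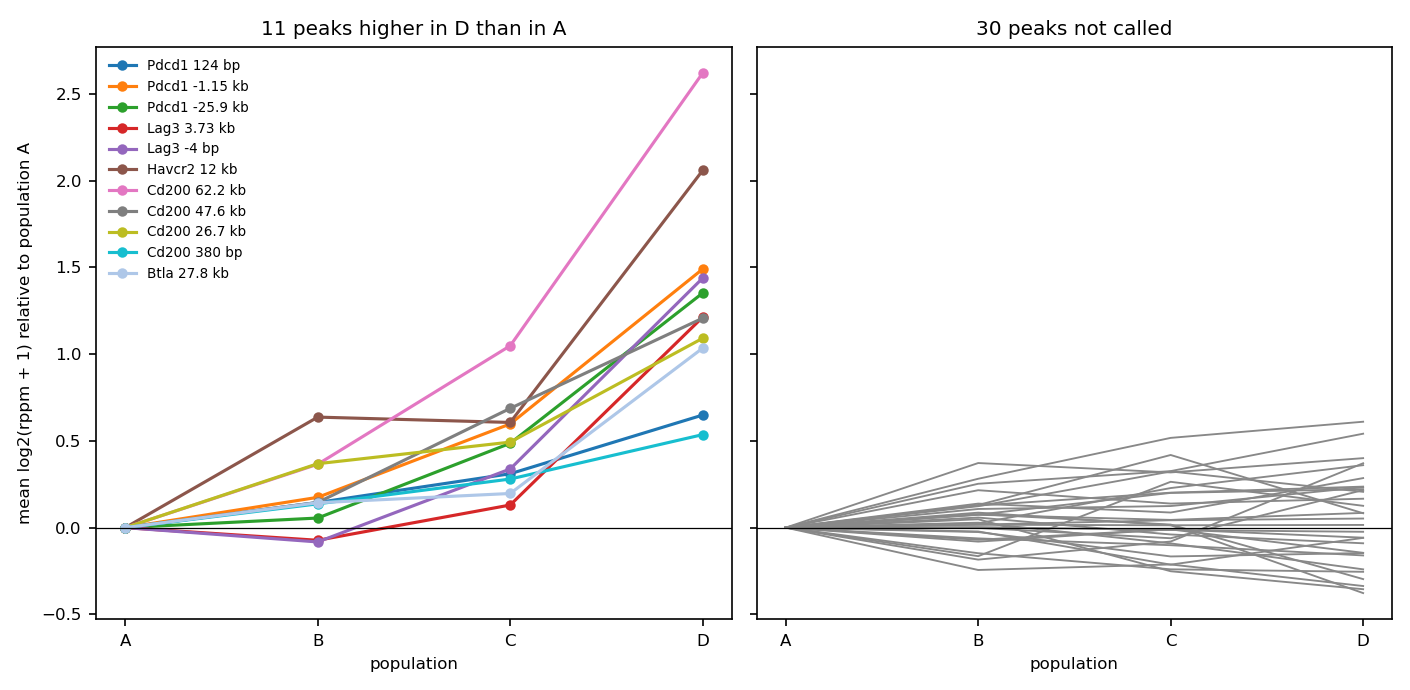
Mean log2(rppm + 1) of each population relative to A (vertical axis) across A, B, C and D, with a line per peak, for the 11 peaks higher in D (left) and the 30 peaks not called (right). On the left 10 of 11 lines climb most between C and D, the exception being Cd200 47.6 kb, and the lines on the right end in D between -0.38 and 0.61.

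The mean of the called peaks in A ran from 0.78 to 23.4 rppm with a median of 2.87, and that of the 30 uncalled members from 2.71 to 69.9 with a median of 9.66. These levels are a description, since a peak that is low in A is listed only if it is higher in other libraries. Within 1 kb of a start site 3 of 8 members were higher in D, at Pdcd1, Lag3 and Cd200, and none was at Tigit, Btla, Cd160 or Cd96. Farther out, 8 of 33 members were higher. Over all peaks the counts were 334 of 12206 within 1 kb and 3623 of 33302 beyond.

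The surroundings of these receptors were described with 4 lists of related genes. Ligands and partners of the members had peaks at 13 of 14 genes (none listed for Fgl1), and 4 of 54 peaks were higher and 2 lower in D than in A, with a median log2 change of -0.09. The 4 were Nectin1, an adhesion protein of the nectin family, 199 kb upstream (3.27 ± 0.92 rppm in A and 16.4 ± 1.50 in D), Tnfrsf14, which encodes HVEM, 14.8 kb upstream (6.35 ± 0.86 and 19.8 ± 0.55), Cd200r1, the receptor for CD200, 8.46 kb downstream (0.989 ± 0.17 and 6.33 ± 0.57), and the promoter of Tnfsf14, the HVEM ligand LIGHT (6.25 ± 0.86 and 10.4 ± 0.93; SD, n = 2 in A and 3 in D throughout). The lower ones were Pvr 6.05 kb upstream, at 17.8 ± 1.17 and 11.4 ± 1.09 rppm, and Hmgb1, encoding a TIM-3 ligand, at 41.6 ± 2.57 and 28.3 ± 4.85 rppm. The PD-1 ligand genes Cd274 and Pdcd1lg2 had 2 and 3 peaks and no call, although the Cd274 promoter, at 47.7 ± 3.42 and 38.8 ± 2.98 rppm, was called lower with the mouse block (limma adjusted p = 0.117 without and 0.0302 with it).

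Other inhibitory receptors had peaks at 9 of 14 genes, with both symbols of Cd244 counted once, and 4 of 51 peaks were higher and 2 lower, with a median of -0.08. Cd101 had 1 in each direction: the peak in intron 7 of 8 rose from 1.94 ± 0.18 to 10.6 ± 1.07 rppm while that in intron 5 of 8 fell from 19.9 ± 1.53 to 12.1 ± 1.39. Intracellular mediators, the phosphatases, kinases and adaptors downstream of such receptors, had 12 of 110 peaks higher and 4 lower, with a median of -0.06. The adaptor gene Dok2 rose 24.4 kb downstream of its start from 3.42 ± 0.85 to 28.5 ± 10.4 rppm, and Inpp5d, encoding the lipid phosphatase SHIP-1, rose in intron 1 from 0.776 ± 0.33 to 5.58 ± 0.95. Cblb, a ubiquitin ligase that restrains T cell activation, was higher at 4 of 22 peaks, and Pag1, an adaptor that recruits the kinase Csk, was higher at 1 and lower at 3 of 23.

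Transcription factors tied to inhibitory receptor expression had the most calls, 28 of 136 peaks higher and 3 lower, with peaks at all 14 genes and a median of 0.10. Tox, a factor of exhausted T cells, was higher at 8 of 28 peaks, Maf at 4 of 13, and Nr4a1 and Nr4a2 at 3 each of 8 and 4. The Nr4a1 calls, counted in the 28, are tied to the sort, since regulatory DNA of Nr4a1 drives the reporter. Whether copies in the transgene add reads at Nr4a1 was not tested. Tox 242 kb downstream of its start went from 0.897 ± 0.27 to 6.29 ± 1.27 rppm, and Tox2 21.7 kb upstream from 18.2 ± 2.55 to 39.4 ± 5.43. As shares, 7.41%, 7.84%, 10.9% and 20.6% of the peaks of the 4 lists were higher, in the order given, beside 8.70% of all peaks. From C to D the counts higher and lower were 3 and 2, 3 and 0, 7 and 1, and 16 and 4. With the mouse block the A to D counts were 7 and 6, 7 and 9, 17 and 10, and 37 and 7.

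**Figure D4:**
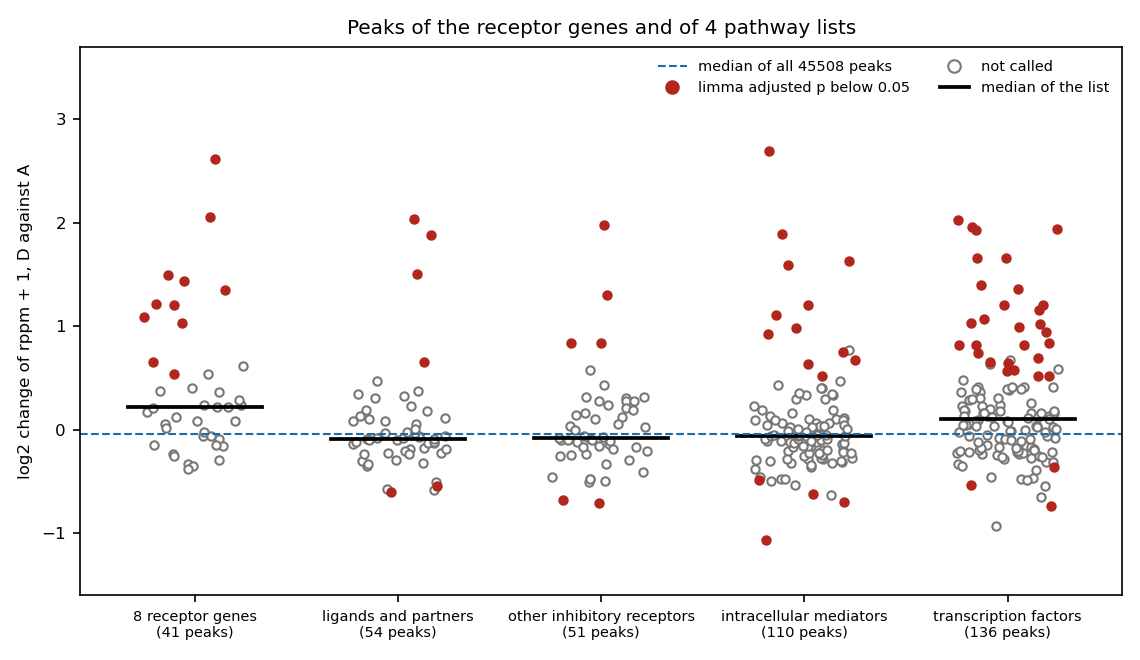
Change from A to D on the log2(rppm + 1) scale (vertical axis) for each peak of the 8 receptor genes and of the 4 lists of related genes, with filled points for limma adjusted p below 0.05, a bar at each list's median and a dashed line at the median of all peaks. Filled points lie on both sides of 0 in the 4 lists and above 0 alone at the receptor genes.

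The sorted cells were checked against markers, since several of these receptors are also high in other lymphocytes. CD4 T cell genes had 18 peaks at 4 of 5 genes (none listed for Trac), with a summed accessibility of 359 to 365 rppm in A and 316 to 366 in D, of which 2 peaks were lower. Regulatory T cell genes (Foxp3, Il2ra, Ikzf2) had 9 of 22 peaks higher and 3 lower, and their sum was 257 to 260 rppm in A and 274 to 306 in D, without overlap. The single Foxp3 peak held 3.74 ± 0.87 rppm in A (SD, n = 2) and 5.00 ± 1.00 in D (SD, n = 3) and was not called (limma adjusted p = 0.387). Follicular helper genes (Cxcr5, Bcl6, Il21) had 7 of 23 higher and none lower, with sums of 340 rppm in both A libraries and 388 to 406 in D. Both cell types are known for high PD-1, and their part in the result was not tested.

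Natural killer genes had peaks at 6 of 7 genes (none listed for Ncr1), with 1 of 19 higher and 4 lower and sums of 483 to 520 rppm in A and 419 to 527 in D. CD8 T cell genes had 1 of 4 higher, at 37.4 to 38.4 and 32.1 to 43.3 rppm. The B cell genes Cd79a and Ebf1 had 3 peaks and no call, at 15.0 to 15.9 and 11.2 to 20.7 rppm, with none listed for Ms4a1 and Pax5. Myeloid genes, with none listed for Lyz2 and Csf1r, had 1 of 13 higher and 3 lower, and their sum was lower in D (63.5 to 82.4 rppm) than in A (94.4 to 96.7). Gamma delta T cell genes, with none listed for Trdc, had 1 of 3 higher, at 7.05 to 7.61 and 11.1 to 16.6 rppm. The part of these cell types in the result was not tested either.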

How the data were processed

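ATAC-seq values for 11 libraries came as 1 deposited table of rppm (taken as RPM, with a denominator that is not given in the sources used here) in 45508 peaks, made by the authors with Bowtie, MACS2 and mm10, per the submitters' processing notes. Every value was a whole multiple of what 1 read is worth (100% within 6e-04 rppm), so reads were recovered for depth and for edgeR and DESeq2 as alternatives.

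The main test was limma 3.58.1 (R 4.3.3) on log2(rppm + 1), with a mean per population, a trended prior, two-sided contrasts, Benjamini-Hochberg adjustment over all peaks and no low-value filter. Residual degrees of freedom were 7. edgeR 4.0.16 and DESeq2 1.42.0 served as alternatives, and the model was tested on simulated data. The simulated libraries were independent, with no mouse effect and no difference in depth, so that test says nothing on either. P-values of the main test measure the spread between libraries within populations. These libraries come from 3 mice, and the main test takes them as independent and leaves out their pairing by mouse. The labels give each library its mouse, so libraries with the same number come from 1 animal: deviations from the population means correlated at 0.18 to 0.56 over 15 same-mouse pairs and at -0.43 to 0.20 over 30 other pairs. Populations of 2 or 3 libraries limit what single-library checks can show.

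The members and lists were chosen with earlier results of these data known. Peaks named for each member were the promoter peak, the peak with the smallest p of any difference among populations and every called peak, and other peaks were added after their values were seen. Promoter and gene entries are from RefSeq (GRCm38.p6), which matched 7 of 8 members for promoters. The motif search planned for peak centres was run on promoter windows instead.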

Additional observations from a re-analysis of the deposited data

How the results depend on the processing

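The 11 calls from A to D became 6 with a minimum mean of 5 rppm, which left 32 of the 41 peaks in the test, 4 without mouse 3, and 9 to 12 when single libraries were left out. The 7 calls from C to D became 3 and 3 under the first 2 of these settings, and the 10 calls of any difference became 4 and 3. Calls lower in D than in A, and in D than in C, went from 0 to 1 with the mouse as a replicate block and from 0 to 0 or 1 when single libraries were left out, the 1 arising without D replicate 2, each time at Tigit 26.2 kb upstream (log2 change from A -0.44 with the block and -0.49 without D replicate 2). The step difference, with 0 calls, had 1 with median-of-ratios scaling, 3 with a pseudocount of 5, 3 with quantile normalization, 4 with the replicate block, and 0 to 1 when single libraries were left out, the 1 without D replicate 1. With the block, 2.16% of all peaks had a step call and 4.53% were called lower from C to D. Under the settings of this paragraph, other shares of all peaks in the C to D, any-difference and step tests are not given. Moves of those member counts thus have no background beside them. The 5658 calls over all peaks from A to D became 3078 with the minimum mean of 5 rppm, 9668 with the replicate block, 3763 in a fit to the A and D libraries alone, 2742 on reads thinned to the shallowest library, 1024 without mouse 3, and 2930 to 6042 when single libraries were left out, with 3115 without A replicate 1 and 2930 without A replicate 3. From A to D, the called peaks lost at the minimum of 5 rppm had lower means and so were not in that test. They were Pdcd1 25.9 kb, both called Lag3 peaks, Havcr2 12.0 kb and Cd200 47.6 kb. The 6 called peaks left in it kept their call. The cause of the other changes was not tested. Beside these and the values given with the results, the block changed no call of a named receptor peak between 2 populations. Where a setting leaves A with 1 library, that library is assumed to vary like the others. No named peak reversed its direction past the threshold under any of up to 22 alternatives each, and at Pdcd1 25.9 kb, Havcr2 12.0 kb, Cd200 62.2 kb and Btla 27.8 kb the call from A to D held under all that gave a value, the first of these being listed through its D libraries alone. Another scaling left the median log2 change of all peaks at -0.03 or -0.04. Depth limits the low peaks most: in the D library of mouse 1 a peak at 1 rppm rests on fewer than 3 reads.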

Other observations

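The peaks of other genes whose pattern over the 11 libraries was most like that of the Cd200 peak 62.2 kb downstream were named by Pearson r on log2(rppm + 1), as a description, among the 31404 whose mean reached 5 rppm. The r values rest on the 11 libraries of the same sort, in 4 populations. They were a peak 25.8 kb upstream of Pfkm, the muscle form of phosphofructokinase (r 0.989), one 3.80 kb downstream of the Mir3965 start (r 0.986), one 4.36 kb into Irak3, an inhibitor of interleukin receptor and Toll-like receptor signalling (r 0.985), one 27.1 kb upstream of Ptgs1 (r 0.985) and one 394 kb from the Inpp4b start, a lipid phosphatase gene (r 0.983). The Pfkm peak rose from a mean of 1.10 rppm in A through 1.70 in B and 3.72 in C to 14.4 in D, and the Irak3 peak from 2.04 through 2.71 and 5.23 to 18.6. The Inpp4b peak was open from the start, at 19.5 rppm in A and 39.4 in D. Among the 11 called receptor peaks themselves, r ran from 0.70 to 0.96 over 55 pairs with a median of 0.86, which is in part set by their choice for a difference between A and D.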
